A study of Mus musculus with 3 samples.

Results

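The genes described here were the ligands *Fgf2*, *Fgf7*, *Fgf10*, *Fgf18* and *Fgf20* and the receptors *Fgfr1*, *Fgfr2* and *Fgfr3*, which made up 8 of the 19165 genes in the expression table. They were chosen by name, and every member had UMIs (unique molecular identifiers, each standing for 1 captured RNA molecule) in the table. Dorsal skin of male C57BL/6 mice was dissociated, and the RNA of single cells was sequenced from its 3′ end in droplets, at the embryonic days E13.5 and E16.5 and on the day of birth (P0), with 1 library per stage and no genetic or drug treatment in any of them. The skin was digested with trypsin at E13.5 and E16.5 and with collagenase IV at P0. Stage and library cannot be told apart, and where P0 is compared with the other stages, digestion cannot be told apart from them either. With 1 library per stage there was no replicate, no test was possible between stages, and all intervals below are 95% intervals for counting error only.

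Fibroblast growth factors are secreted proteins that bind receptor tyrosine kinases together with heparan sulfate and switch on the MAP kinase pathway, whose feedback genes include the Sprouty and Dusp families. In skin, ligands made in one layer are read by receptors in the other. *Fgf7* and *Fgf10* are mesenchymal ligands that bind the epithelial splice form of *Fgfr2*, whereas *Fgf20* is made in the epithelial placode and is needed for the dermal condensate, the cell cluster that becomes the dermal papilla of the hair follicle. Counting at the 3′ end does not separate the epithelial and mesenchymal splice forms of *Fgfr2*, so its values are sums over both.

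The E13.5 library held 5962 cells, the E16.5 library 5208 and the P0 library 5065, with median UMIs per cell of 7066.5, 11021 and 6797. The table held 16235 barcodes, all of which met the minimum number of genes that the methods state, whereas the design text states 15086 cells. Cells were clustered within each library without any Fgf pathway gene and named from marker genes, so that every class name below stands for cells that were like that type by their markers. Of the E13.5 cells, 38.4% stayed unnamed, mostly because they carried markers of more than 1 lineage, against 3.05% at E16.5 and 4.6% at P0. Between 32 and 44 barcodes were shared by pairs of libraries. Levels are UMIs of a gene per 1000000 UMIs of the class (CPM, counts per that many UMIs), and are compared within a gene only.

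Promoter sequences are shown for *Fgf7*, *Fgf10* and *Fgf18*, the dermal ligands whose position in the dermis is described below. Each is a RefSeq window on GRCm38.p6 of 250 bases before to 50 bases after the start of transcription, written 5′ to 3′ on the strand of the gene, at chr2:126034408-126034707 (+), chr13:118714449-118714748 (+) and chr11:33147351-33147650 (-). Capitals mark a GC box (GGGCGG) or a CCAAT box (CCAAT) on either strand.
Fgf7: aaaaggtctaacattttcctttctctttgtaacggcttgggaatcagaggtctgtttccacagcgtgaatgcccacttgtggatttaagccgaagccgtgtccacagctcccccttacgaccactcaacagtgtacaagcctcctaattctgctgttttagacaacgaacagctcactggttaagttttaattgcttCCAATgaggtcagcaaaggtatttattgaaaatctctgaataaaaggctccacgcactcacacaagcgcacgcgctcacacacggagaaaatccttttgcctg
Fgf10: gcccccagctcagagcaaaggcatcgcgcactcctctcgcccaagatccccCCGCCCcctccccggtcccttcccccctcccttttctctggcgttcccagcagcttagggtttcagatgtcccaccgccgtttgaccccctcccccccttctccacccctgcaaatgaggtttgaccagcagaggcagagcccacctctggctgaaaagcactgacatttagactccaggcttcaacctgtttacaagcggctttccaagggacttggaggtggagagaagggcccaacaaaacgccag
Fgf18: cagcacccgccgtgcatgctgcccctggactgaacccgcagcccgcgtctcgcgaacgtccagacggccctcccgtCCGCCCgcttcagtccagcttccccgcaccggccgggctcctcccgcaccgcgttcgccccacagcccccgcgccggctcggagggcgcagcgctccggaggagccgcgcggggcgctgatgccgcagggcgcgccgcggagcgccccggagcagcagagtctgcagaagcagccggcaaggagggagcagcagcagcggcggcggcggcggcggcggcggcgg
The *Fgf7* window was 45.7% G and C with 1 CCAAT box, the *Fgf10* window 60.7% with 1 GC box, and the *Fgf18* window 78.7% with 1 GC box, beside a median of 52.7% over all windows. A GC box was present in 35.7% of all 32851 windows and a CCAAT box in 37.4%. None of the 3 windows held TATAAA, which was in 13.6% of all windows, or CTTTGAT, the core bound by TCF and LEF factors, which was in 3.73%. Windows were found for 6 of the 8 members.

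The first question was which skin layer carried each ligand and receptor. A ratio was called when it reached 2 in either direction with an interval that left out 1, among genes with at least 50 UMIs in the 2 groups together. All 8 members were called between epithelial and dermal cells in the E16.5 and P0 libraries, and 7 of the 7 with enough UMIs in the E13.5 library. *Fgf2*, *Fgf7*, *Fgf10*, *Fgf18* and *Fgfr1* were higher in dermal cells and *Fgfr2* and *Fgfr3* in epithelial cells at every stage, and *Fgf20* was higher in epithelial cells at E16.5 and P0. Over all genes the same rule called 9.82% as higher in epithelial cells and 17.6% as lower at E13.5, 11.5% and 19.7% at E16.5, and 14.8% and 18.1% at P0.

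*Fgfr1*, the main receptor of dermal cells, was at 156, 404 and 302 CPM in dermal cells at E13.5, E16.5 and P0 and at 14.4, 58.5 and 83.3 CPM in epithelial cells. The dermal level was thus 10.8-fold higher at E13.5 (7.52 to 16.2), 6.92-fold at E16.5 (6.44 to 7.43) and 3.63-fold at P0 (3.43 to 3.83). At least 1 *Fgfr1* UMI was found in 67.8%, 92.5% and 71.4% of dermal cells, against 22.4%, 34.0% and 28.8% of immune cells, a class in which little *Fgfr1* is expected, with median depths of 8512.5, 10398 and 6023 UMIs in dermal and 8824, 10224 and 8220.5 in immune cells. After each cell was thinned to 3500 UMIs, which left out 1 cell, the dermal shares were 39.2%, 67.0% and 53.8% and the immune shares 9.9%, 14.9% and 13.6%.

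*Fgfr2* was at 50.7, 151 and 97.8 CPM in epithelial cells and at 15.6, 51.7 and 46.5 CPM in dermal cells at the 3 stages. Its epithelial level was 3.26-fold higher at E13.5 (2.58 to 4.07), 2.91-fold at E16.5 (2.73 to 3.10) and 2.10-fold at P0 (1.94 to 2.29). At clustering resolution 0.5 the ratio at E13.5 was 0.39 on the log2 scale and not called, and the P0 ratio was not called under 3 of 10 alternatives. Within the epithelium at E13.5, *Fgfr2* stood at 147 CPM (114 to 187) in the cluster led by *Gjb6*, *Krt15* and *Krt14*, at 56.1 CPM (38.4 to 79.2) in the cluster led by *Krtdap* and *Perp*, and at 4.02 CPM (1.10 to 10.3) in periderm, the flat outer layer of the embryonic skin, and no 2 of these intervals overlapped. *Fgfr3*, a receptor of differentiating epidermis and of cartilage, was at 43.2 CPM (31.3 to 58.2) in periderm and at 22.8 CPM (12.1 to 39.0) in the *Krtdap*-led cluster, whose intervals overlapped, and had no UMI in the 45 cells of the *Gjb6*-led cluster, which allows up to 8.23 CPM. At E16.5 the periderm held more *Fgfr3*, 66.1 CPM (49.3 to 86.7), than the clusters led by *Krt14* and *Krt15*, 21.8 CPM (18.2 to 26.0), by *Mt2* and *Dmkn*, 17.0 CPM (upper limit 21.1), and by *Ccer2* and *Krt79*, 31.4 CPM (21.0 to 45.1). The class named periderm at E16.5, 1 cluster of 46 cells, also had *Krt1* and *Krt10* among its leading genes. Those genes led the suprabasal cluster at P0, and no suprabasal class was named at E16.5. At P0 *Fgfr3* was at 55.0 CPM (42.9 to 69.6) in root sheath or shaft cells and 53.4 CPM (43.6 to 64.8) in suprabasal cells. These levels did not differ beyond their intervals, and follicle epithelium was at 32.3 CPM (28.6 to 36.3). Basal or other epithelial clusters led by *Serpinb10* and *Krt5* and by *Ccer2* were at 54.3 CPM (45.1 to 64.7) and 51.4 CPM (42.9 to 61.2). Their intervals overlapped that of suprabasal cells, so *Fgfr3* did not separate these clusters from suprabasal cells. The *Krt79*-led cluster of the same class was lower, at 25.9 CPM (20.4 to 32.3). Suprabasal cells at P0 had less *Fgfr2*, 39.9 CPM (31.5 to 49.9), than basal or other epithelial cells, 98.3 CPM (91.4 to 106), a class that also held a cluster led by *Krt79* and *Pthlh*, at 91.0 CPM (80.5 to 102). These suprabasal cells had no more *Fgfr2* than dermal cells at P0. Nor did the E16.5 periderm class, at 44.5 CPM (31.0 to 61.9), have more than dermal cells at E16.5.

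Among the ligands, *Fgf10* was at 6.55, 20.2 and 9.05 CPM in dermal cells and 0.497, 1.52 and 0.665 CPM in epithelial cells at E13.5, E16.5 and P0. *Fgf7* was at 17.1, 5.96 and 9.17 CPM in dermal and 2.48, 0.0723 and 0.768 CPM in epithelial cells. *Fgf18* was at 19.6, 2.84 and 4.67 CPM in dermal and 1.49, 0.362 and 0.102 CPM in epithelial cells. *Fgf2*, a ligand without a classical secretion signal, was at 3.98, 7.61 and 8.59 CPM in dermal and 0, 0.723 and 2.51 CPM in epithelial cells. No UMI was found in the 158 epithelial cells at E13.5. With 3 UMIs as the floor, the dermal level at that stage was at least 2.67-fold higher. At P0 the *Lhx2*-led follicle cluster was at 6.73 CPM (4.54 to 9.6) and root sheath or shaft cells at 5.5 CPM (2.21 to 11.3). Both intervals took in the *Gm1673*-led upper dermal cluster, at 6.81 CPM. The other epithelial clusters at P0 were lower, down to 0.405 CPM. At E16.5 the *Ccer2*-led epithelial cluster was at 5.41 CPM, from 5 UMIs, beside 3.02 to 8.51 CPM in upper dermal clusters. Other epithelial clusters there were at most at 1.72 CPM. *Fgf20* was higher in epithelial cells, with 14.3 CPM there and 0.298 CPM in dermal cells at E16.5, a 48.1-fold ratio (26.3 to 97.9). At P0 it was at 2.87 and 0.173 CPM, a 16.6-fold ratio (5.39 to 82.8). With 10 CPM added to both groups the calls ended for *Fgf10* at E13.5, for *Fgf2*, *Fgf7* and *Fgf18* at E16.5, and for all 5 ligands at P0. Those of *Fgf18* and *Fgf20* at P0 also ended with cells of at least 2500 genes, and that of *Fgf7* at E13.5 ended with classes from marker UMIs of single cells. At E13.5 only 9 *Fgf20* UMIs were found in epithelial cells and 0 in 2330 dermal cells, too few for a call.

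**Figure D1:**
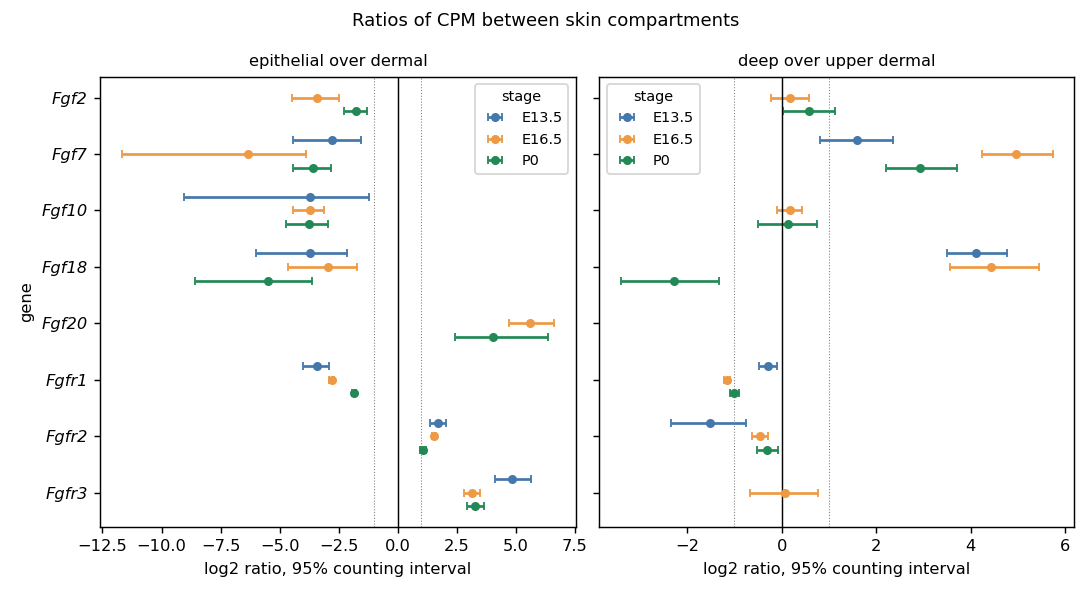
Log2 ratio of CPM with its 95% counting interval for each gene, epithelial over dermal (left) and deep over upper dermal (right), coloured by stage; genes under 50 UMIs or with a group at 0 are not drawn, and dotted lines mark a ratio of 2. *Fgf18* lies at 4.11 and 4.44 at E13.5 and E16.5 and at -2.28 at P0 in the right panel.

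The dermal cells were next divided into an upper class, under the epidermis, and a deep class. Dermal clusters that fell in neither, apart from the condensate and papilla, were named other dermal. At E13.5 the deep class was 1 cluster of 214 cells, the upper class was 2 clusters, and 4 clusters were other dermal. The comparison of deep with upper cells left the other dermal clusters out. This comparison was added after values of the members had been seen. At E13.5, 3 of the 4 members with enough UMIs were called, at E16.5 3 of 7, and at P0 3 of 6. Over all genes 7.39% were called higher and 9.04% lower in deep cells at E13.5, 5.29% and 4.81% at E16.5, and 5.28% and 9.51% at P0. Dissociation response genes were also higher in deep cells, 4 of 7 tested at E13.5 (median log2 ratio 1.09 beside -0.05 over all genes), 1 of 9 at E16.5 (0.53 beside -0.08) and 6 of 10 at P0 (1.17 beside -0.21), and none was lower. They summed to 539, 2217 and 5380 CPM in deep and 263, 1573 and 2871 CPM in upper cells, and their part in the member levels was not tested. *Fgf7* was at 15.8, 21.1 and 14.9 CPM in deep cells at the 3 stages and at 5.24, 0.682 and 1.98 CPM in upper cells. Its deep level was 3.01-fold higher at E13.5 (1.76 to 5.11), 31.0-fold at E16.5 (19.1 to 53.4) and 7.55-fold at P0 (4.59 to 13.1). With classes from marker UMIs of single cells, which left 45, 20 and 141 deep cells, these calls ended at all 3 stages, with log2 ratios of 0.72, 3.77 and 2.87. The E13.5 call also ended with 10 CPM added (0.76) and the P0 call with cells of at least 2500 genes (1.45). Over all alternatives the log2 ratio was never below 0.72, 1.54 and 1.06 at the 3 stages in turn. At E13.5 the other dermal clusters held *Fgf7* at 14.2 to 31.8 CPM, a range that took in the deep level. At E16.5 the deep clusters led by *C1qtnf3* and by *Mfap5* were at 67.0 and 38.0 CPM. Those led by *Agtr2* were at 8.65 and 11.7 CPM. At P0 the deep clusters were at 7.66 to 23.6 CPM. An upper cluster of 31 cells at P0, led by *Bmp3* and *Inhba*, was at 28.8 CPM (11.6 to 59.4).

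*Fgf18*, a ligand also known from cartilage and bone, was at 69.3 CPM (57.6 to 82.6) in deep and 4.01 CPM (2.62 to 5.87) in upper cells at E13.5, and at 9.90 CPM (7.96 to 12.2) and 0.454 CPM (0.235 to 0.794) at E16.5. Of the 90 deep UMIs at E16.5, 49 came from the cluster of 145 cells led by *C1qtnf3* and *Aspn* (32.8 CPM) and 27 from the cluster of 42 cells led by *Mfap5* and *Ly6a* (51.3 CPM). The other deep clusters, of 290 and 242 cells and both led by *Agtr2*, were at 1.40 CPM (0.453 to 3.26) and 2.58 CPM (1.18 to 4.89), and their intervals overlapped that of the highest upper cluster, 1.51 CPM (0.312 to 4.41). At P0 the order was the other way, with 1.52 CPM (0.73 to 2.8) in deep and 7.38 CPM (5.76 to 9.31) in upper cells. The upper level at P0 was 4.85-fold the deep level (2.49 to 10.5). Among the upper clusters at P0, *Fgf18* was at 13.6 CPM in the cluster led by *Gm1673* and *Lum* and at 10.7 CPM in the one led by *Crabp1* and *Kcnk2*. The upper clusters led by *Mxd3*, with 435 cells, and by *Entpd2*, with 293, were at 2.38 CPM (1.03 to 4.69) and 1.87 CPM (0.386 to 5.48), and did not differ from the deep clusters, at 0.909 to 2.12 CPM, beyond their intervals. All 3 *Fgf18* calls ended with classes from marker UMIs of single cells, with log2 ratios of deep over upper cells of 0.45, 6.77 and -2.40 at the 3 stages. Those at E16.5 and P0 also ended with 10 CPM added, with log2 ratios of 0.93 and -0.59. At E13.5 *Fgf18* was also found in tendon cells, at 33.6 CPM (25.1 to 44.1), and in cartilage cells, at 27.8 CPM (20.1 to 37.5), which did not differ beyond their intervals. The other dermal clusters at that stage were at 11.2 to 30.5 CPM. *Fgfr1* was higher in upper cells, 2.23-fold at E16.5 (2.13 to 2.35) and 2.00-fold at P0 (1.87 to 2.15, not called under 4 of 10 alternatives), and *Fgfr2* was 2.84-fold higher in upper cells at E13.5 (1.70 to 5.08, not called under 2 of 8 alternatives). Some upper clusters had no more *Fgfr1* than deep ones. At E16.5 those led by *Mgst1* (348 cells) and by *Hist1h1b* (374 cells) were at 185 and 228 CPM, beside 180 to 235 CPM in deep clusters. At P0 the *Gm1673*-led upper cluster of 456 cells was at 167 CPM, beside 144 to 182 CPM in deep clusters. *Fgf10* did not separate the classes at E16.5, with 17.8 CPM in deep and 15.8 CPM in upper cells and a ratio of 1.13 (0.933 to 1.35), or at P0, with 6.24 and 5.72 CPM and a ratio of 1.09 (0.710 to 1.67). At E13.5 it was at 11.8 CPM in deep and 1.39 CPM in upper cells, from 21 and 9 UMIs, an 8.53-fold ratio (3.74 to 21.1) with too few UMIs for a call. In the other dermal clusters at E13.5 *Fgf10* was at 3.54 to 15.6 CPM, a range that took in the deep level. The E16.5 ratio was called with classes from marker UMIs of single cells, at 1.72 on the log2 scale.

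**Figure D2:**
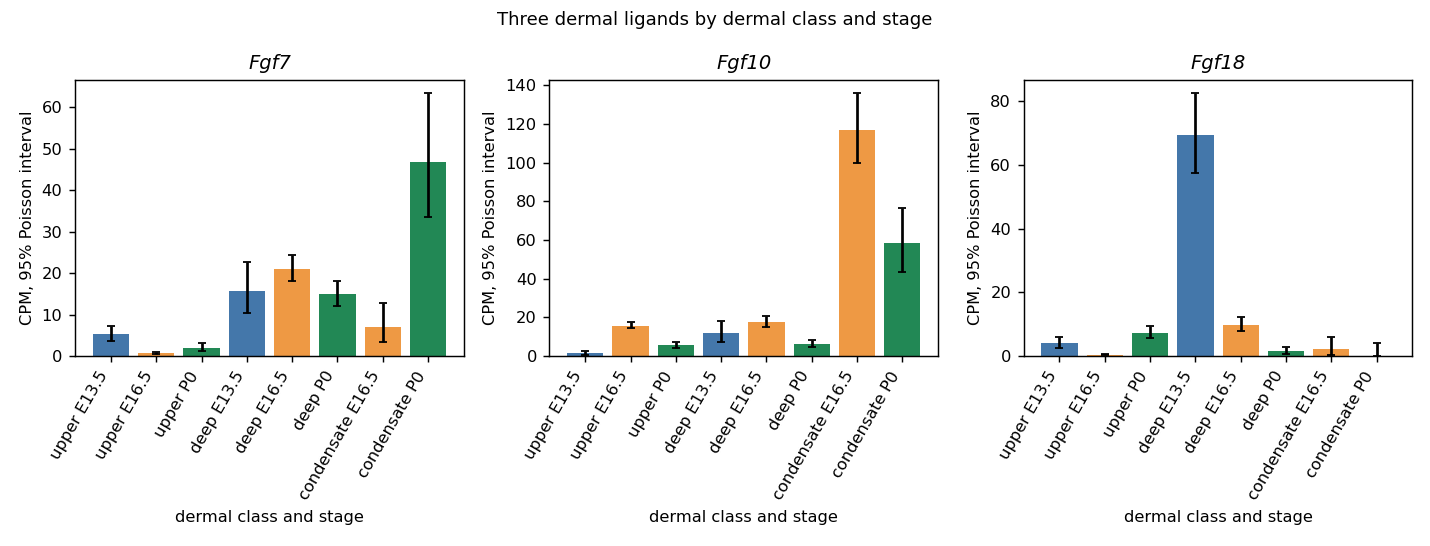
CPM of *Fgf7*, *Fgf10* and *Fgf18* (y axes from 0, 95% Poisson intervals) in upper, deep and condensate or papilla cells at each stage, 1 library per bar colour. *Fgf10* reaches 117 CPM in the E16.5 condensate, and *Fgf18* is at 69.3 CPM in deep cells at E13.5.

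The condensate and papilla are the dermal signalling centres of the follicle. In 168 condensate cells at E16.5, *Fgf10* was at 117 CPM against 16.3 CPM in other dermal cells, a 7.14-fold ratio (5.97 to 8.50), and at least 1 UMI was found in 53.6% of condensate cells (45.7 to 61.3) and in 1.91% of immune cells. *Fgfr1* was at 799 CPM (754 to 847) against 388 CPM, a 2.06-fold ratio (1.94 to 2.19). This level was not particular to the condensate, since *Fgfr1* was at 865 CPM (834 to 897) in the upper dermal cluster of 409 cells led by *Stmn2* and *Kcnk2* and at 626 CPM (592 to 662) in the one led by *Foxd1*. *Fgf10* and *Fgfr1* were the 2 members called of 7 with enough UMIs, beside 10.6% of all genes called higher and 9.04% lower in the condensate. The *Fgfr1* call ended under 6 of 10 alternatives, and the *Fgf10* call under none of 10. In the *Foxd1*-led cluster, *Fgf10* was at 38.3 CPM, between the condensate and the other upper clusters, which ranged down to 10.6 CPM.

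In 117 papilla cells at P0, 6 of 7 members with enough UMIs were higher than in other dermal cells, beside 17.4% of all genes called higher and 7.58% lower. *Fgf10* was at 58.3 CPM against 6.44 CPM, a 9.05-fold ratio (6.35 to 12.8), and *Fgf7* at 46.8 against 7.17 CPM, a 6.53-fold ratio (4.46 to 9.40). *Fgf2* was at 33.1 against 7.29 CPM, a 4.54-fold ratio (2.92 to 6.86). *Fgfr1* was at 1165 against 256 CPM, *Fgfr2* at 98.2 against 43.7 CPM and *Fgfr3* at 24.0 against 3.04 CPM. The papilla clusters held *Fgfr2* at 78.5 to 120 CPM, beside 91.0 to 111 CPM in basal or other epithelial clusters at P0. Under 10 alternatives the *Fgfr2* call ended in 3 and the *Fgfr3* call in 2. The *Fgf10* call ended in 1, with classes from marker UMIs of single cells and a log2 ratio of 2.52, and the *Fgf2*, *Fgf7* and *Fgfr1* calls held in all. No *Fgf18* UMI was found in the papilla as named here, against 4.92 CPM in other dermal cells, which was at least 1.44-fold lower with the floor of 3 UMIs and not called.

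The papilla was made of 3 clusters. *Fgf7* was at 71.0 CPM (47.5 to 102) in the cluster led by *Serpine2* and at 36.0 CPM (18.0 to 64.4) in the one led by *Inhba*, and the 31 cells of the cluster led by *Plac8* and *Bmp4* held 1 *Fgf7* UMI, or 6.20 CPM (0.157 to 34.5), which overlapped the second of these intervals. *Fgfr1* was at 1336 CPM (1226 to 1453) and 1257 CPM (1134 to 1389) in the former 2 clusters and at 558 CPM (449 to 686) in the latter. A further cluster of 31 cells, led by *Bmp3*, *Inhba* and *Rspo3*, held papilla markers but was named upper dermal by the rule used. It held 12 of the condensate markers, and the *Plac8*-led papilla cluster held 11. It had *Fgf18* at 20.6 CPM, from 5 UMIs, *Fgf10* and *Fgf7* each at 28.8 CPM, *Fgf2* at 24.7 CPM and *Fgfr1* at 626 CPM. *Fgfr3* was at 4.12 CPM there, from 1 UMI. When it was counted as papilla, the number of members called was again 6. Another cluster, of 49 cells and led by *Galnt9* and *Stmn2*, had *Sox18* and *Heyl* among its leading genes and was named other dermal. It held 13 of the condensate markers, as did the *Inhba*-led papilla cluster. *Fgfr1* was at 389 CPM (319 to 470) there and *Fgf10* at 36.4 CPM (17.4 to 66.9), and *Fgf2*, *Fgf7* and *Fgfr3* each had 1 UMI, or 3.64 CPM (0.0921 to 20.3). Genes of the dissociation response summed to 8242 CPM in the papilla, 5380 CPM in deep and 2871 CPM in upper cells at P0, and the part of this in the member levels was not tested. Epithelial markers summed to 435 CPM in the papilla, beside 412 CPM in upper and 451 CPM in deep cells and 19529 CPM in basal or other epithelial cells.

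**Figure D3:**
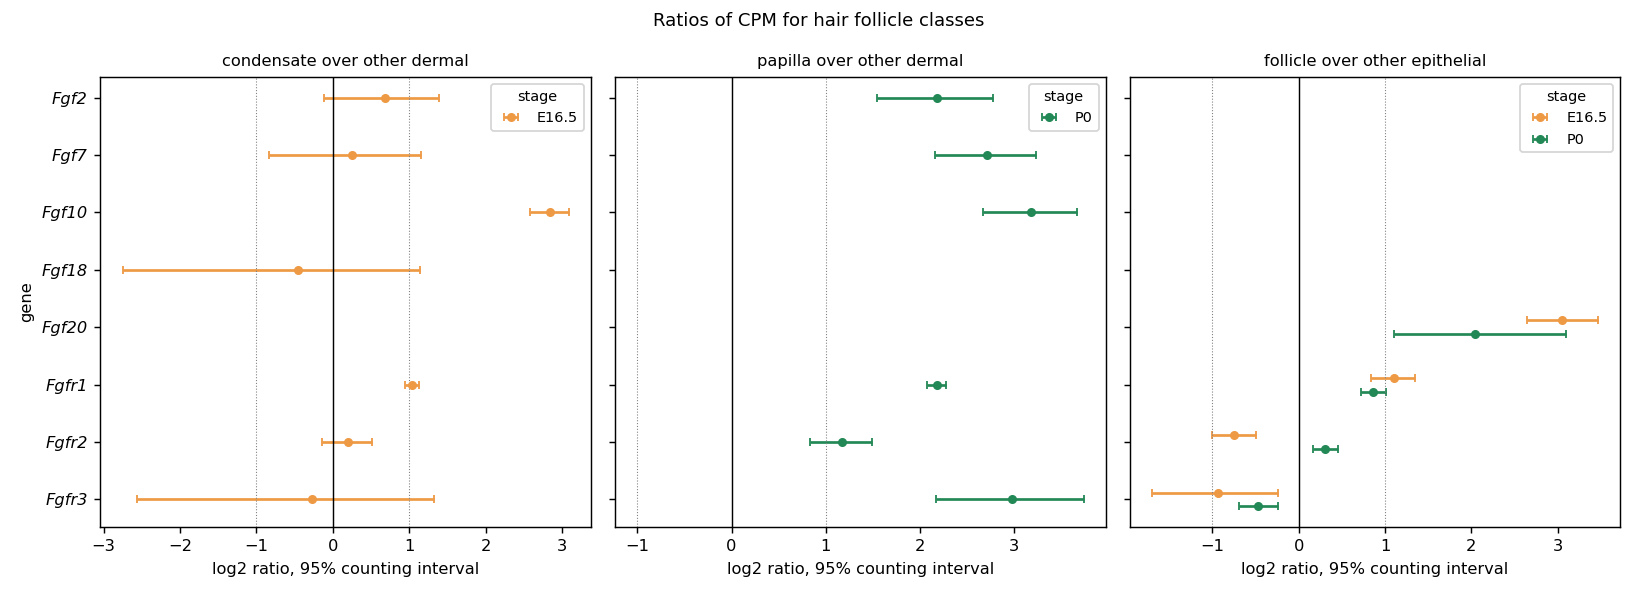
Log2 ratio of CPM with its 95% counting interval for condensate over other dermal cells at E16.5, papilla over other dermal cells at P0, and follicle over other epithelial cells at both stages; genes under 50 UMIs or with a group at 0 are not drawn. *Fgf10* lies at 2.84 in the condensate and 3.18 in the papilla, and *Fgf20* at 3.05 and 2.04 in the follicle.

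In the follicle epithelium (placode, germ and matrix), *Fgf20* was at 67.1 CPM against 8.09 CPM in other epithelial cells at E16.5, an 8.30-fold ratio (6.22 to 11.1), and at 5.11 against 1.24 CPM at P0, a 4.12-fold ratio (2.14 to 8.56). The E16.5 call ended under 1 of 8 alternatives, clustering resolution 2, with a log2 ratio of 0.22. The P0 call ended under 2 of 9, with cells of at least 2500 genes (3.17) and with 10 CPM added (0.43). At least 1 *Fgf20* UMI was found in 43.7% of E16.5 follicle cells (33.9 to 53.8) and in 0% of 209 immune cells. The E16.5 signal was uneven, with 130 CPM in the cluster of 61 cells led by *Dkk4* and *Bmp2*, genes of the placode, and 8.60 and 20.9 CPM in the follicle clusters led by *Lhx2* and by *Shh*. These 3 values came from 89, 5 and 4 UMIs. The intervals of the latter 2, 2.79 to 20.1 and 5.71 to 53.6 CPM, overlapped that of a cluster outside the follicle. This cluster, of 260 cells and led by *Mt2* and *Dmkn*, was at 15.6 CPM (12.3 to 19.5). At P0 the signal was uneven too. *Fgf20* was at 18.2 CPM (12.6 to 25.4) in the *Shh*-led matrix cluster, from 34 UMIs, and at 0 CPM in the cluster led by *Tbx1*. The largest follicle cluster at P0, of 312 cells and led by *Lhx2*, was at 2.24 CPM (1.08 to 4.12). Its interval overlapped that of the *Ccer2*-led cluster outside the follicle, at 3.24 CPM (1.40 to 6.38). *Fgfr1* was 2.14-fold higher in the follicle at E16.5 (1.79 to 2.55, not called under 3 of 8 alternatives) and 1.82-fold at P0 (1.64 to 2.02), the latter not called. At E16.5 it was at 205 CPM (169 to 245) in the *Lhx2*-led cluster of 27 cells, but at 40.8 CPM (27.1 to 58.9) in the *Dkk4*-led cluster. The *Shh*-led cluster was at 83.8 CPM (47.9 to 136). Among other epithelial cells at E16.5, *Fgfr1* was at 204 CPM (176 to 236) in the *Ccer2*-led cluster. It was at 42.3 and 38.9 CPM in those led by *Krt14* and by *Mt2*. *Fgfr2* was at 93.9 CPM in follicle and 157 CPM in other epithelial cells at E16.5 and at 107 and 86.6 CPM at P0, neither called. Of 4 members with enough UMIs, 2 were called at E16.5 and 1 at P0, beside 4.17% of all genes called higher and 4.33% lower at E16.5 and 6.28% and 6.38% at P0. At P0 the dissociation response genes summed to 2244 CPM in the follicle and 5055 CPM in basal or other epithelial cells, and the part of this was not tested.

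**Figure D4:**
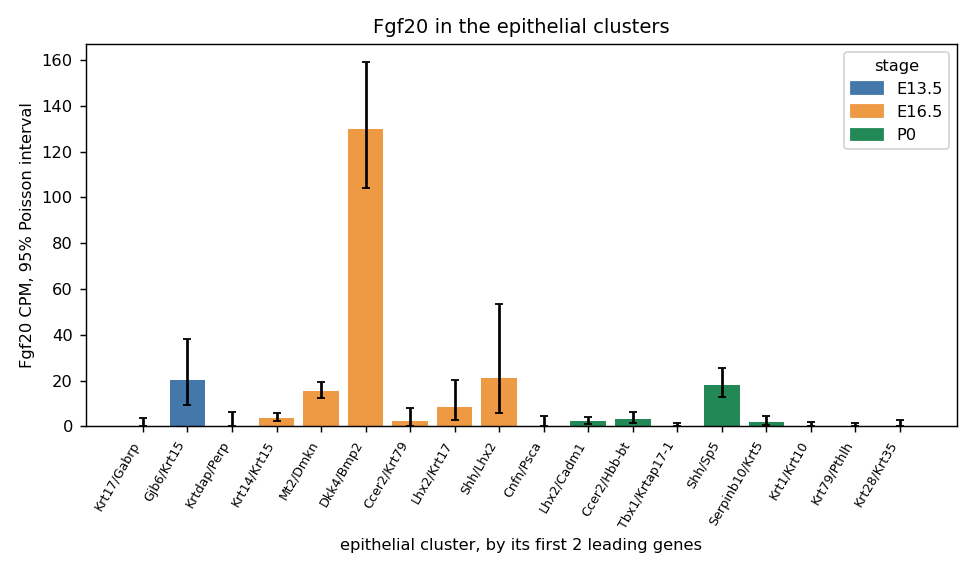
CPM of *Fgf20* (y axis from 0, 95% Poisson intervals) in each epithelial cluster, named by its first 2 leading genes and coloured by stage. The cluster led by *Dkk4* and *Bmp2* at E16.5 is at 130 CPM, and the *Shh*-led cluster at P0 is at 18.2 CPM.

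The other genes of the pathway were counted from lists chosen by their known roles. Of the feedback and target genes, 6 of 11 tested were higher and 1 lower in the condensate, with a median log2 ratio of 1.42 beside 0.10 over all genes tested, of which 10.6% were called higher and 9.04% lower. *Il17rd*, a membrane inhibitor of Fgf signalling, was 5.21-fold higher (3.34 to 7.88), *Spry1* 3.20-fold (2.73 to 3.74), and *Spry2* was 4.36-fold lower (3.10 to 6.34). In the papilla 5 of 9 were higher and 0 lower, beside 17.4% and 7.58% of all genes, with *Spred1* 4.16-fold (3.46 to 4.97) and *Il17rd* 4.45-fold (2.51 to 7.52) higher. In the follicle 4 of 7 were higher at E16.5 and 3 of 7 at P0, beside 4.17% and 6.28% of all genes, and 0 were lower. The transcription factor gene *Etv4* was 5.44-fold higher at E16.5 (4.38 to 6.75) and 6.67-fold at P0 (5.29 to 8.51), and the phosphatase gene *Dusp6* 4.08-fold (3.64 to 4.58) and 3.62-fold (3.13 to 4.19). In epithelial against dermal cells, 0 of 10 were higher and 3 lower at E13.5, 2 and 5 of 11 at E16.5, and 2 and 4 of 9 at P0. In deep against upper dermal cells the counts were 1 and 1 of 10, 0 and 3 of 10, and 0 and 1 of 9. The shares over all genes for these comparisons are given above.

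Among co-receptors and carriers, *Fgfbp1*, which releases Fgf ligands from the matrix, was 133-fold higher in epithelial than dermal cells at E13.5 (93.3 to 196), 42.2-fold at E16.5 (38.2 to 46.7) and 39.5-fold at P0 (32.8 to 47.8). Of this list, 2 of 13 tested were higher and 6 lower in epithelial cells at E13.5. The counts were 3 and 7 of 14 at E16.5 and 5 and 5 of 14 at P0. Over all genes the shares were 9.82% and 17.6%, 11.5% and 19.7%, and 14.8% and 18.1%. Within the epithelium *Fgfbp1* was 2.72-fold lower in the follicle at E16.5 (2.41 to 3.08) and 2.29-fold lower at P0 (2.16 to 2.44). The list went mostly the other way at E16.5, with 5 of 11 tested higher in the follicle and 1 lower. At P0 2 of 11 were higher and 2 lower. All genes gave 4.17% higher and 4.33% lower at E16.5 and 6.28% and 6.38% at P0. The heparan sulfate proteoglycan gene *Sdc1* was 7.76-fold higher in the condensate (7.24 to 8.30) and 9.62-fold higher in the papilla (8.44 to 10.9). Of the co-receptors and carriers, 4 of 14 were higher and 1 lower in the condensate, beside 10.6% and 9.04% of all genes. In the papilla 5 of 14 were higher and 1 lower, beside 17.4% and 7.58%. Of the heparan sulfate enzymes, 4 of 12 were higher and 2 lower in the papilla, beside 17.4% and 7.58% of all genes, and among the higher was *Sulf1*, 10.4-fold higher (6.14 to 17.4). Of the intracellular transducers, 0 of 16 were called in the condensate, beside 10.6% of all genes higher and 9.04% lower, and 2 of 15 were higher in the papilla and 0 lower, beside the same 17.4% and 7.58%.

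The genes most like each member were sought over 31 classes, among 11535 or 11536 genes, by Pearson correlation of log2(CPM + 10). The classes of 1 stage share a library, so these values are descriptions. *Fgf10* was most like *Glis1* (r = 0.961), *Edn3* (0.883) and *Adamts15* (0.874), and *Fgf18* was most like *2700069I18Rik* (0.934), *Angptl1* (0.923) and *Col8a2* (0.919). *Fgfr3* was most like *Hip1r* (0.927), *Klc3* (0.917) and *Camsap3* (0.912), and *Fgfr1* was most like *Robo2* (0.919), *Cacna1g* (0.889) and *1190005I06Rik* (0.864). Genes like *Fgfr2* included *Ryk* (0.823) and *Irx2* (0.813). *Fgf2* was most like *Nkd2* (0.873), *Vwc2* (0.866) and *Gm10561* (0.865), *Fgf20* was most like *Espn* (0.855), *2010300C02Rik* (0.818) and *Tango6* (0.806), and *Fgf7* was least closely matched, with *Brdt* (0.783), *Cpxm1* (0.775) and *Il17d* (0.771).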

How the data were processed

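Single-cell libraries were made with the 10x 3′ version 2 kit from dorsal skin, 1 per stage. Per the labels, reads were counted with Cell Ranger 2.2.0 on mm10. The authors deposited natural log values, found here to be ln(1 + UMIs per 10000 UMIs of the cell), and whole UMIs were recovered from these values for all 48197283 values above 0, at a relative tolerance of 0.001.

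Each library was clustered in scanpy 1.11.5 (2000 variable genes without Fgf pathway genes, 30 components, 15 neighbours, Leiden resolution 1). Clusters were named from marker lists, and mixed clusters were clustered again at resolution 0.5 or left unnamed. The members, the gene lists and the naming were chosen with earlier results of these data known. The naming rule was revised several times after clusters and member levels had been seen (the minimum marker level, the treatment of mixed clusters and the leading-gene rule). A looser rule that added 31 cells to the P0 papilla was tried and set aside, and is given as an alternative. Scrublet doublets, called in 125 cells at E16.5 and 146 at P0 and in 0 at E13.5, where the caller did not work, were kept. UMIs were summed per class. Intervals were exact Poisson (CPM), exact binomial (Clopper-Pearson, shares) and exact conditional binomial (ratios). A group at 0 was set to 3 UMIs. On simulated UMIs for the condensate comparison, 93.0% of 200 genes changed 4-fold were called and 0.824% of unchanged genes. Genes were named by a fixed rule: all 8 members, up to 4 called genes with the largest ratios per list and comparison, and the 3 most alike genes of each member, of which 1 is not reported here. Values of a class at different stages were given side by side with no call, since leading genes of several clusters were not those of their class.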

Additional observations from a re-analysis of the deposited data

Results flagged for a closer look

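With the classes used here, *Fgf18* was called in opposite directions in the same contrast at different stages. The log2 ratio of deep over upper dermal cells was 4.11 at E13.5 and 4.44 at E16.5 and -2.28 at P0, each from 1 library. All 3 calls ended with classes from marker UMIs of single cells (0.45, 6.77 and -2.40), and those at E16.5 and P0 with 10 CPM added (0.93 and -0.59), and 0 of the alternatives changed a direction. The difference between stages was not tested. Stage cannot be told apart from library, nor from digestion where P0 is compared with the other stages.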

How the results depend on the processing

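No paired analysis was possible because each stage had 1 library. Of 43 called member values, 15 kept their call under all alternatives that gave a ratio, 27 lost it under at least 1, 1 had a group at 0 and no ratio, and 0 changed direction. The number of members called moved as follows. With classes set from marker UMIs of single cells it was 4 for epithelial against dermal at E13.5 and 5 at P0, 3 for the papilla, 0 for the P0 follicle, and 0 and 1 for deep against upper at E13.5 and P0. With 10 CPM added it was 5 and 2 for epithelial against dermal at E16.5 and P0, 1 and 0 for the follicle at E16.5 and P0, and 1 and 1 for deep against upper at E13.5 and P0. For the condensate it was 1 at resolution 0.5, with cells of at least 2500 genes, with every cell weighted equally, with marker UMIs, with median ratio scaling, and with the *Foxd1*-led cluster counted as condensate. With at least 2500 genes it was 5 for epithelial against dermal at P0, 0 for the P0 follicle and 1 for deep against upper at P0. For the follicle it was 1 at resolution 2 at E16.5, and at P0 it was 2 at resolution 0.5, with equal weights, and at 10 UMIs. The causes were not tested. Median ratio scaling shifted all genes by 0.31 (log2) for the papilla, -0.21 for deep against upper at P0 and 0.14 for the P0 follicle. Resolution 0.5 gave no deep class at E13.5 and no follicle class at E16.5, and marker UMIs left 2 epithelial cells at E16.5, so these gave no value. The deep against upper comparison, the *Foxd1* and *Bmp3* reassignments and the omission of the *Ppbp*-led cluster at E13.5 were chosen after seeing the data. The *Ppbp*-led cluster held 663 other dermal cells with a median of 4782 UMIs, and had *Itga2b* among its leading genes. It was counted in the dermal values at E13.5 given above. At least 1 *Fgfr1* UMI was found in 49.0% of its cells (45.2 to 52.9). Stage comparisons within dermal or epithelial cells were not called, so no alternative was run for them. Low counts limit *Fgf20* at E13.5 and *Fgf18* in the papilla.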

Other observations

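Outside the dermis and epithelium, *Fgfr3* was at 28.8 CPM in the E13.5 neural cluster led by *Fabp7* and *Sox2* and at 3.39 and 3.10 CPM in the neural clusters led by *Igfbpl1* and by *Sst*. *Fgfr1* was at 142 CPM in the first of these clusters, and at 44.1 and 77.5 CPM in the others. In 45 adipogenic cells at P0, *Fgfr2* was at 88.8 CPM (68.2 to 114) and *Fgf10* at 11.3 CPM (4.87 to 22.2).

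*Fgfr4*, a receptor outside the 8 members, was at 47.6 CPM in upper and 5.63 CPM in deep dermal cells at P0, an 8.45-fold ratio (6.04 to 12.2).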
